A study of Mus musculus with 20 samples.

Results

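Liver transcripts of 10 genes of de novo lipogenesis were followed in 20 mice, with 1 RNA sequencing library per mouse. The genes were Srebf1, Mlxipl, Acly, Acss2, Acaca, Acacb, Fasn, Scd1, Me1 and Thrsp, matched by symbol among 55487 Ensembl genes in the table of read counts, and all 10 had enough reads to be tested in each comparison. All mice were female C57BL/6J, entered the study at 8 weeks of age and were 28 weeks old at sampling. Chow-fed mice stayed on chow throughout, and the other mice first ate a high-fat diet (HFD) without added test protein for 10 weeks. They then ate, for 10 weeks, isocaloric HFDs in which 50% of the protein came from salmon fishmeal, salmon filet or beef, the rest being casein. Libraries were made from mice picked as representative of larger groups. Chow and HFD also differed in carbohydrate and protein content, and the HFDs in cholesterol, fatty acids and added soybean oil. Effects of these components and of fat or protein source cannot be told apart. The column names of the count table gave 5 mice per diet. For mouse 31 the column name said beef and the sample label said salmon filet, so it was counted as beef here, and values with it as salmon filet are given where they changed a call.

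De novo lipogenesis builds fatty acids in the cytosol of hepatocytes from acetyl-CoA left over from carbohydrate breakdown. Citrate exported from mitochondria is cleaved to acetyl-CoA, which is carboxylated to malonyl-CoA, joined into palmitate by fatty acid synthase with NADPH as reductant, and then desaturated or elongated. In liver the program is driven by insulin through SREBP-1c and by glucose through ChREBP, and polyunsaturated fatty acids are known to dampen it.

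The libraries held 42526234 to 70266136 reads assigned to genes. Of these, 93.2% to 95.6% fell on protein coding genes in 19 libraries, and 84.3% in that of mouse 35, which was fed beef. The hepatocyte markers Alb, Apoa1, Ttr, Cyp2e1, Hnf4a and Serpina1c had reads in all 20 libraries. Of 7 adipocyte markers, Lep was at 0 in every library, Adipoq reached at most 0.203 TPM (transcript abundance scaled by gene length and library), and the list added up to 6.64 to 15.7 TPM, nearly all from Fabp4 and Adrb3. Of 6 exocrine pancreas markers, Prss1 was at 0 everywhere and Cela1 alone was seen in each library, with sums of 10.1 to 12.1 TPM with chow and 12.3 to 27.0 TPM with HFD. The 5 markers of Kupffer cells and macrophages in the table added up to 184 to 493 TPM in chow-fed mice and 159.7 to 387 TPM in HFD-fed mice. The 6 lymphocyte markers added up to 6.42 to 15.6 TPM with chow, 3.79 to 6.21 with fishmeal, 2.92 to 8.02 with salmon filet and 3.15 to 6.36 with beef, and 4 of them fell in HFD versus chow. A clock score was computed for each liver as the mean log2 level of 8 clock genes that include Dbp and Per2 minus that of 4 that include Arntl. It lay between -2.97 and -1.07 in chow-fed mice and between -2.22 and 3.70 in HFD-fed mice. The part of lymphocytes or of Cela1 in the differences from chow was not tested.

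Compared per gene length, Scd1 stood far above the other genes, with 5077 ± 2614 TPM (mean ± SD, n = 5) in chow-fed mice. Mlxipl followed with 238 ± 43.4 TPM, Acly with 223 ± 70.6 TPM and Fasn with 142 ± 48.3 TPM. Me1 had 114 ± 34.7 TPM, Acss2 103 ± 44.5 TPM and Thrsp 88.2 ± 40.2 TPM. Srebf1 and Acacb were lower, with 53.6 ± 8.53 TPM and 47.5 ± 14.2 TPM, and Acaca was lowest with 19.8 ± 3.13 TPM. In this order, neighbours differed by less than the larger of their SDs, other than Scd1 and Mlxipl, Acly and Fasn, and Acacb and Acaca. Values below are TMM-normalised counts scaled to library size (CPM), which compare mice for a gene but not genes with each other.

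**Figure D1:**
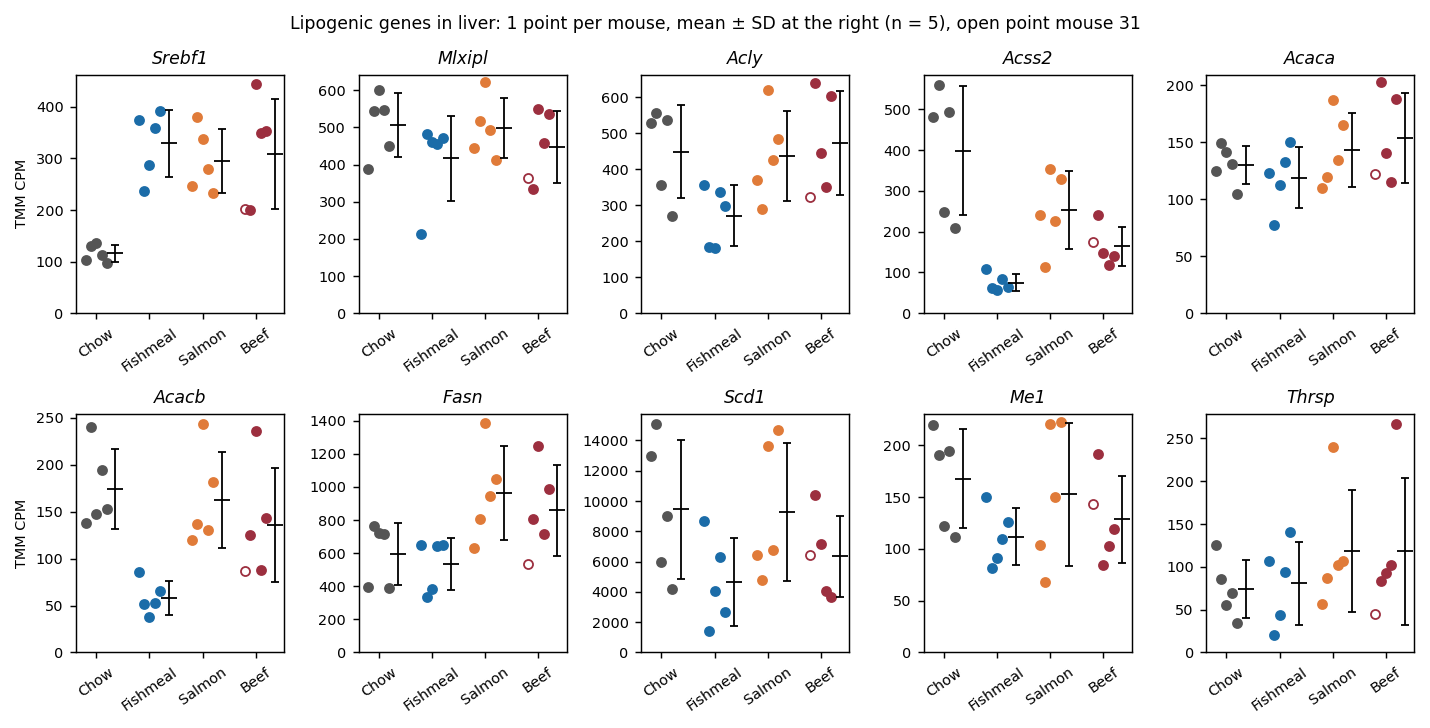
Level of each gene in each liver (vertical axis, TMM CPM, starting at 0) by diet (horizontal axis). Points are mice, bars are mean ± SD of 5 mice, and the open point is mouse 31, which the sample labels place with salmon filet. The 5 chow-fed mice lie below all HFD-fed mice for Srebf1, and the 5 mice fed fishmeal lie below all others for Acss2 and Acacb.

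HFD versus chow compares these genes between all HFD-fed mice and chow-fed mice. Srebf1 rose 2.68-fold and Acss2 fell to 0.408 of its chow level, while the other 8 genes were not called. So 2 of 10 genes were called at an adjusted p under 0.05, where 9.75% of 17120 genes tested were called. Only Srebf1 separated every HFD-fed from every chow-fed mouse, which 1.58% of genes did. The median log2 fold change of the 10 genes was -0.18 and that of all genes 0.00. In bulk liver, fewer cells of a type and less RNA per cell cannot be told apart. With the clock score as a covariate, 1 of the 10 genes was called, where 1.83% of all genes were. Srebf1 kept its call at a log2 fold change of 1.04 (edgeR adjusted p = 0.00329), and Acss2 lost it at -1.07 (edgeR adjusted p = 0.367). Diet and clock score moved together in these mice, and the part of the clock was not tested beyond this fit.

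Against chow, Srebf1 was called with each of the protein sources. With fishmeal, Srebf1 rose and Acss2 and Acacb fell, 3 of 10 genes where 3.38% of 16471 genes were called. All 3 separated the groups without overlap, as 5.91% of genes did. With salmon filet, Srebf1 was the 1 gene called, where 4.42% of genes were called and 8.28% did not overlap. With beef, Srebf1 rose and Acss2 fell, 2 genes where 3.05% were called, and Srebf1 alone did not overlap, as 6.16% of genes did. With mouse 31 counted as salmon filet, beef gave 1 gene, Srebf1, where 2.48% of genes were called. These comparisons share the chow-fed mice, and a call with one diet but not with another does not show that the diets differ. The clock score as a covariate left Srebf1 alone called with fishmeal, at 1.33 (edgeR adjusted p = 0.0481), where 0.243% of all genes were called. No member was called with salmon filet or beef, where 0.121% and 0.11% of all genes were. There Srebf1 was at 1.03 (edgeR adjusted p = 0.125) and 0.76 (edgeR adjusted p = 0.252).

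**Figure D2:**
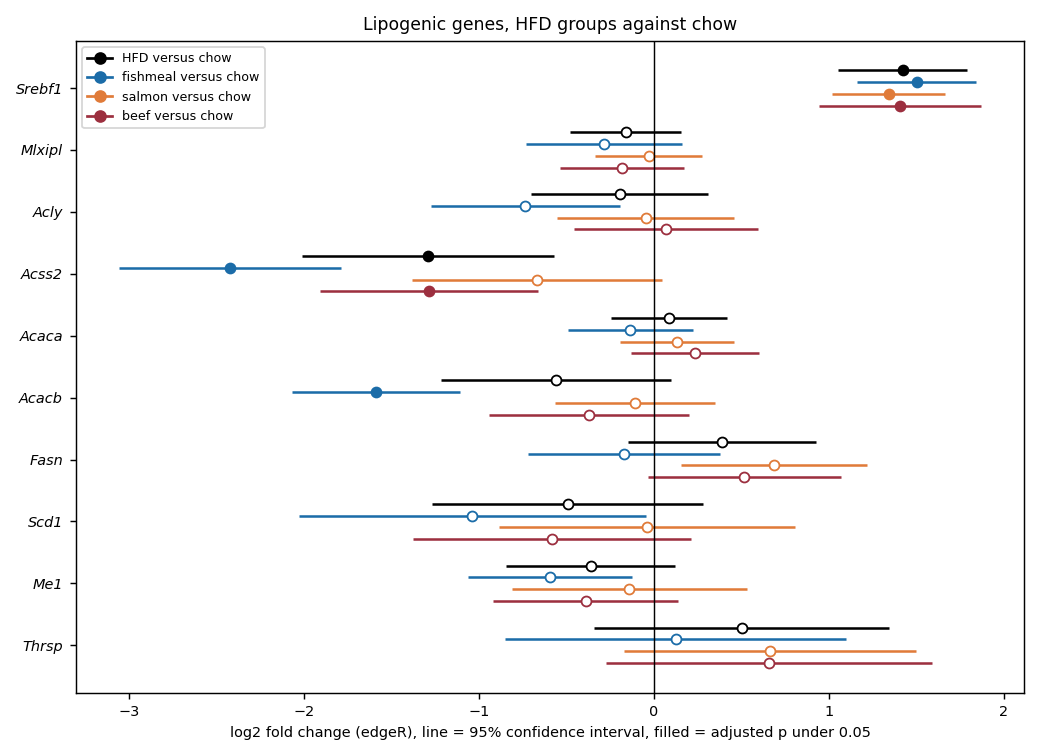
Log2 fold change against chow (horizontal axis) for each gene (vertical axis), for all HFD-fed mice and for each protein source. Points are edgeR estimates, lines 95% confidence intervals and filled points adjusted p under 0.05. Srebf1 lies between 1.34 and 1.5 in all comparisons, whereas Acss2 runs from -0.67 with salmon filet to -2.42 with fishmeal.

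Srebf1 encodes SREBP-1, the transcription factor that switches on most enzymes of the pathway, and lies at chr11:60199089-60222581 on the minus strand of GRCm38. In chow-fed mice it had 104, 131, 136, 113 and 97.1 CPM in mice 1, 2, 5, 7 and 10. With fishmeal it had 375, 238, 287, 358 and 391 CPM in mice 12, 13, 14, 16 and 20. With salmon filet it had 247, 381, 337, 279.9 and 233 CPM in mice 22, 23, 25, 26 and 27. The highest chow-fed mouse stayed well under the lowest of all HFD-fed mice. With beef it had 202, 199, 445, 348 and 352 CPM in mice 31, 32, 35, 39 and 40, so mice 31 and 32 lay apart from the other three of that group. The group means were 116 ± 16.8 CPM with chow, 329.8 ± 65.0 with fishmeal, 309.5 ± 107 with beef and 295 ± 62.2 with salmon filet (SD, n = 5 each). The log2 fold change was 1.42 (SE 0.18, edgeR adjusted p = 2.22e-05) for all HFD-fed mice. It was 1.5 with fishmeal (edgeR adjusted p = 0.00033), 1.34 with salmon filet (edgeR adjusted p = 0.0009) and 1.41 with beef (edgeR adjusted p = 0.00629). The 3 HFD groups differed by less than their spread.

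The count of Srebf1 does not separate SREBP-1a from SREBP-1c, which start at different promoters. The pair of PCR primers that the study used for SREBP-1c matched 1 of 12 GENCODE transcripts, which starts at position 60210465. RefSeq has a start beside it at 60210471, and the 250 bases before it (chr11:60210472-60210721, minus strand, GRCm38.p6) are shown because Srebf1 was the member called against chow in each diet. Capitals mark CCAAT (1 match, here as its reverse complement) and the GC box GGGCGG (2 matches), searched on both strands.
Srebf1, SREBP-1c start: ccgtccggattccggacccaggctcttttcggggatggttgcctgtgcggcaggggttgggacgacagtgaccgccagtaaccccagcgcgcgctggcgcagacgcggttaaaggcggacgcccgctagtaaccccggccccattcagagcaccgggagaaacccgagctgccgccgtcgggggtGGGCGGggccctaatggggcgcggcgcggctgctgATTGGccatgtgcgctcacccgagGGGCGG
Neither TCACNCCAC, used here for the sterol regulatory element, nor CACGTG, used for the E-box, occurred in these letters. Only these exact letters were searched, so variant forms of either element would be missed and their absence is not shown. Of 32817 promoter windows of the same length, 33.8% held CCAAT, 32.7% GGGCGG, 6.02% CACGTG and 1.05% TCACNCCAC. A match is a match of letters and not a bound site. In all, 9 of the 10 genes had a promoter in the RefSeq table. Exons of Srebf1 overlap those of Rai1 on the other strand, which had a median of 620.5 counts against 15127 for Srebf1, and whether reads were counted by strand is not given in the sources used here.

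Mlxipl encodes ChREBP, the glucose-responsive partner of SREBP-1c in driving the pathway (chr5:135089890-135138382). It had 506 ± 86.0 CPM with chow, 416 ± 113 with fishmeal, 448 ± 97.4 with beef and 497 ± 81.0 with salmon filet. The chow-fed mice ran from 387 to 601 CPM and overlapped every HFD group. Its log2 fold change in HFD versus chow was -0.16 (95% interval -0.48 to 0.16, edgeR adjusted p = 0.561), so Mlxipl showed no difference beyond the spread. Mouse 12, fed fishmeal, was low at 214 CPM, and the other mice of its group had 455 to 481 CPM.

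Acly and Acss2 both make cytosolic acetyl-CoA, Acly by cleaving citrate and Acss2 by activating acetate. Acly (chr11:100476353-100528000, minus strand) had 449 ± 129 CPM with chow, 271 ± 83.9 with fishmeal, 473 ± 144 with beef and 438 ± 125 with salmon filet. With fishmeal its log2 fold change against chow was -0.74 (SE 0.25), with an unadjusted p of 0.0115 that did not pass the adjustment (edgeR adjusted p = 0.141). With salmon filet and beef it was at -0.05 and 0.07, and all groups overlapped.

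Acss2 (chr2:155517948-155585724) had the largest log2 fold change of the 10 genes with fishmeal. In chow-fed mice it had 482, 560.2, 249, 495 and 209 CPM in mice 1, 2, 5, 7 and 10, so 3 mice were high and 2 were low. With fishmeal it had 108, 61.1, 56.1, 84.4 and 64.9 CPM in mice 12, 13, 14, 16 and 20. Every sequenced mouse fed fishmeal was below every other sequenced mouse. With salmon filet it had 241, 113, 355, 225 and 328 CPM in mice 22, 23, 25, 26 and 27. With beef it had 174, 241, 147, 118 and 141 CPM in mice 31, 32, 35, 39 and 40. Both groups overlapped each other and the 2 low chow-fed mice. The means were 399 ± 159 CPM with chow, 253 ± 95.5 with salmon filet, 164 ± 47.4 with beef and 75 ± 21.5 with fishmeal. Against chow the log2 fold change was -2.42 with fishmeal (SE 0.29, edgeR adjusted p = 0.00094), a level of 0.186 of chow. It was -1.29 with beef (SE 0.29, edgeR adjusted p = 0.034), -0.67 with salmon filet (SE 0.33, edgeR adjusted p = 0.237) and -1.29 for all HFD-fed mice (SE 0.35, edgeR adjusted p = 0.0206). For all HFD-fed mice it was -1.46 in a fit on all 4 groups at once (edgeR adjusted p = 0.00037). With the HFDs pooled, the call for all HFD-fed mice was lost at edgeR adjusted p values of 0.066 to 0.0779. This happened without chow-fed mouse 1, 2 or 7, the 3 high ones. The call with beef was also lost without any of these or without mouse 31, 35, 39 or 40, at edgeR adjusted p values of 0.0601 to 0.0879. With fishmeal the call held without each mouse in turn. It was lost with the clock score as a covariate, at -1.80 (edgeR adjusted p = 0.17). That score ran from -2.97 to -1.07 with chow and from -0.80 to 3.04 with fishmeal. As these ranges do not overlap, this fit cannot tell diet and clock score apart.

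The 250 bases before the RefSeq start of Acss2 (chr2:155517793-155518042, plus strand, GRCm38.p6) are shown with those of Acacb further down, because these genes fell together with fishmeal. Capitals mark CCAAT (1 match) and GGGCGG (4 matches) on either strand.
Acss2: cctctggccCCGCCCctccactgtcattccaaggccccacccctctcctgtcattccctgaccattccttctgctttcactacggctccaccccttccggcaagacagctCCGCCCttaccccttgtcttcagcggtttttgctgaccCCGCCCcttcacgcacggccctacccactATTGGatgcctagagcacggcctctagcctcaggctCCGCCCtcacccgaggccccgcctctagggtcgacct
No TCACNCCAC and no CACGTG occurred. Exons of Acss2 overlap those of Gss on the other strand, which had a median of 2269.5 counts against 10728 for Acss2, and of Ggt7, which had very few.

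Acaca and Acacb encode the acetyl-CoA carboxylases that make malonyl-CoA, the cytosolic enzyme ACC1 for synthesis and the mitochondria-bound ACC2, whose product also restrains fatty acid oxidation. Acaca (chr11:84129672-84401651) was among the least variable of the genes, with 130.1 ± 16.9 CPM with chow, 119 ± 26.9 with fishmeal, 154 ± 39.5 with beef and 143 ± 32.3 with salmon filet. Its log2 fold change in HFD versus chow was 0.09 (95% interval -0.25 to 0.42, edgeR adjusted p = 0.793). A transcript of the gene Gm5182 is 99.2% identical to Acaca over 6118 bases and had a median of 969.5 counts against 7050.5 for Acaca, so reads could have been split between these genes.

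Acacb (chr5:114146535-114250761) fell with fishmeal and was not called with the other protein sources. In chow-fed mice it had 137, 240.2, 147, 195 and 152 CPM in mice 1, 2, 5, 7 and 10. With fishmeal it had 85.6, 51.5, 37.3, 52.2 and 65.2 CPM in mice 12, 13, 14, 16 and 20. The highest of these was just below the lowest of all other mice, which was mouse 31 at 87.2 CPM. With salmon filet it had 119.9, 137, 244, 131 and 182 CPM in mice 22, 23, 25, 26 and 27. With beef it had 87.2, 125, 236, 88.0 and 143 CPM in mice 31, 32, 35, 39 and 40. These 2 groups overlapped chow. The means were 58.4 ± 18.1 CPM with fishmeal, 136 ± 60.8 with beef, 163 ± 51.1 with salmon filet and 174 ± 42.8 with chow. Against chow the log2 fold change was -1.59 with fishmeal (SE 0.22, edgeR adjusted p = 0.00239), a level of 0.333 of chow. It was -0.11 with salmon filet (edgeR adjusted p = 0.782) and -0.37 with beef (edgeR adjusted p = 0.495). For all HFD-fed mice it was -0.56 (edgeR adjusted p = 0.294), and in a fit on all 4 groups at once -0.68 (edgeR adjusted p = 0.0435). The call with fishmeal held without each mouse in turn. It was lost with the clock score as a covariate, at -1.38 (edgeR adjusted p = 0.214). The clock scores of chow-fed mice and mice fed fishmeal did not overlap, so this fit cannot tell diet and clock score apart.

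The window before the RefSeq start of Acacb (chr5:114165268-114165517, plus strand, GRCm38.p6) held CCAAT once, in capitals, and none of the other 3 motifs. GENCODE also has a start further upstream, at 114146535, and the counts do not separate transcripts from these starts.
Acacb: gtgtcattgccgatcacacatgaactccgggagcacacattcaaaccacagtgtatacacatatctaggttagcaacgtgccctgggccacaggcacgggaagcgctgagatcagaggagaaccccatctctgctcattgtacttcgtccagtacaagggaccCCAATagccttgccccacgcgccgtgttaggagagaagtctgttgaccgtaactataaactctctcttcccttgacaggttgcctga

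Fasn encodes fatty acid synthase, which assembles palmitate (chr11:120805846-120824547, minus strand). In chow-fed mice it ran from 388 to 761 CPM (596 ± 187), with fishmeal from 338 to 650.0 (532 ± 158), with salmon filet from 629.6 to 1389 (963 ± 285) and with beef from 533 to 1249 (858 ± 274). Each of the 5 mice fed salmon filet was above the chow mean, but the groups overlapped. The log2 fold change with salmon filet was 0.69 (SE 0.24, edgeR adjusted p = 0.12), and DESeq2 called it (adjusted p = 0.046). With fishmeal it was -0.17 (edgeR adjusted p = 0.81) and with beef 0.52 (edgeR adjusted p = 0.305).

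Scd1 encodes the stearoyl-CoA desaturase that makes oleate and palmitoleate (chr19:44394455-44407879, minus strand). It spread widely within every diet, from 4218 to 15076 CPM with chow, 1404 to 8673 with fishmeal, 4795 to 14700.2 with salmon filet and 3697 to 10388 with beef. The means were 9449 ± 4577, 4636 ± 2906, 9270.2 ± 4546 and 6346 ± 2699 CPM. With fishmeal the log2 fold change against chow was -1.04 (SE 0.46, unadjusted p = 0.0419, edgeR adjusted p = 0.27), and for all HFD-fed mice it was -0.49 (95% interval -1.27 to 0.28). At this spread a fishmeal level of 0.487 of chow did not pass the adjustment. Its transcript is 95.5% identical to Scd2 over 623 bases, and Scd2 had a median of 412.5 counts.

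Me1 encodes malic enzyme, a source of NADPH for the synthase (chr9:86581371-86695953, minus strand). It had 168 ± 47.9 CPM with chow, 112 ± 27.5 with fishmeal, 129 ± 41.7 with beef and 153 ± 69.0 with salmon filet. With fishmeal its log2 fold change against chow was -0.59 (SE 0.22, unadjusted p = 0.0174, edgeR adjusted p = 0.172), with overlap between the groups. Thrsp encodes Spot 14, a small protein induced with the lipogenic enzymes (chr7:97412938-97417730, minus strand). It had 74.2 ± 34.0 CPM with chow, 81.1 ± 48.5 with fishmeal, 118 ± 85.8 with beef and 119 ± 70.7 with salmon filet. Its log2 fold change in HFD versus chow was 0.50 (SE 0.41, edgeR adjusted p = 0.487), and its sign with fishmeal, at 0.12, changed when mouse 10 or 20 was left out, with the clock score as a covariate and with limma on log2(TPM + 1).

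The HFDs were also compared with each other, among mice that all ate a HFD. These diets differed in protein source and also in cholesterol, fatty acids and added soybean oil. Acss2 and Acacb were lower with fishmeal than with salmon filet, to 0.297 and 0.359 of the salmon filet level. They were 2 of 28 genes called in that comparison, or 0.17% of 16494 genes, and all 28 were lower with fishmeal. The log2 fold change was -1.75 for Acss2 (SE 0.28) and -1.48 for Acacb (SE 0.23), both with an edgeR adjusted p of 0.0268. Both separated the groups without overlap, as 1.19% of genes did. Of the 10 genes, 9 had a negative estimate, and Acly, Fasn and Scd1 reached an unadjusted p under 0.05 without passing the adjustment, at -0.69, -0.85 and -1.0 (edgeR adjusted p of 0.857, 0.497 and 0.92). With the clock score as a covariate both calls held, at -1.75 for Acss2 (edgeR adjusted p = 0.0471) and -1.46 for Acacb (edgeR adjusted p = 0.037). With mouse 31 as salmon filet, Acss2 alone was called, 1 gene where 0.157% were called, and Acacb was at -1.35 (edgeR adjusted p = 0.0703). Leaving out single mice gave from 0 to 2 calls, where from 0.084% to 0.246% of all genes were called. None of the 10 genes was called without mouse 13, 14, 16, 20, 25 or 27, and Acacb alone without mouse 22 or 26. The estimates then ran from -1.94 to -1.58 for Acss2 and from -1.65 to -1.27 for Acacb.

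Fishmeal against beef gave estimates of the same sign and no calls by edgeR. None of the 10 genes was called, where 4 of 16304 genes or 0.0245% were, and 4 of the 10 had an unadjusted p under 0.05, where 2.59% of all genes had one. Acss2 was at -1.14 (95% interval -1.62 to -0.65, edgeR adjusted p = 0.199) and Acacb at -1.22 (95% interval -1.84 to -0.60, edgeR adjusted p = 0.461). The mice of the groups did not overlap for these 2 genes, as for 0.595% of genes. DESeq2 called both, with adjusted p values of 0.00188 for Acss2 and 0.0201 for Acacb, where it called 0.154% of all genes. Acly was at -0.80 and Fasn at -0.69, each with an edgeR adjusted p of 0.999.

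Salmon filet against beef showed no called member, and 0% of 16212 genes were called by edgeR. Acss2 was at 0.61 (95% interval 0.02 to 1.21, edgeR adjusted p = 0.922) and was the 1 member with an unadjusted p under 0.05. DESeq2 and limma called none of the 10 either, and DESeq2 called 0.0139% of genes. No member separated the groups, as 1.01% of genes did. The 95% interval was -0.56 to 0.42 for Srebf1, -0.52 to 0.30 for Acaca and -0.97 to 0.98 for Thrsp, so the size of a difference that these mice leave possible depended on the gene.

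**Figure D3:**
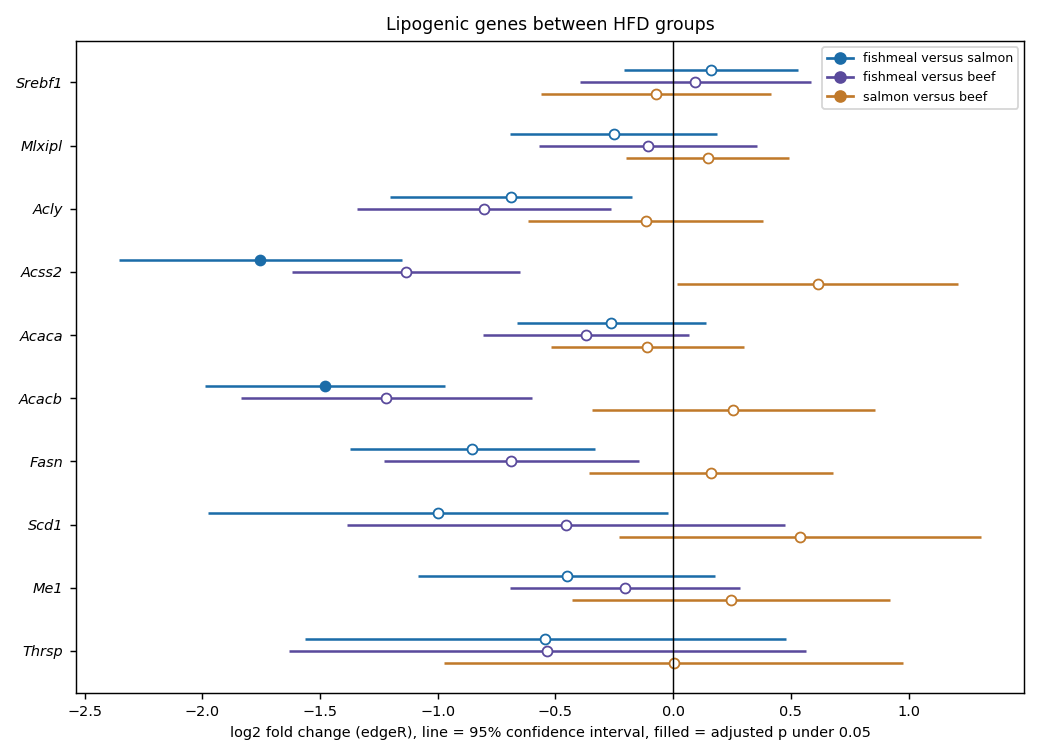
Log2 fold change between HFD groups (horizontal axis) for each gene (vertical axis), with mouse 31 counted as beef. Points are edgeR estimates, lines 95% confidence intervals and filled points adjusted p under 0.05. Acss2 and Acacb are filled for fishmeal versus salmon filet, at -1.75 and -1.48, and lie at -1.14 and -1.22 for fishmeal versus beef.

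Mice on the same diet differed considerably from one another. The coefficient of variation in chow-fed mice was 13.0% for Acaca, 14.4% for Srebf1, 39.7% for Acss2, 45.9% for Thrsp and 48.4% for Scd1. With fishmeal the highest mouse had 6.76 times the lowest for Thrsp and 6.18 times for Scd1. The fit of HFD versus chow pools the HFDs, so its biological coefficient of variation also takes in differences between those diets. It was above that of 97.3%, 96.9% and 96.6% of all genes tested for Thrsp, Scd1 and Acss2. For Mlxipl and Srebf1 it was above 59.1% and 62.0%. The coefficient of variation of Acss2 was 28.7% with fishmeal, 37.8% with salmon filet, 28.9% with beef and 57.9% over all HFD-fed mice. The mean deviation of the 10 genes from their diet means, on the log2 scale, was highest in mouse 25 fed salmon filet (0.59) and mouse 2 fed chow (0.38). It was lowest in mouse 13 fed fishmeal (-0.58) and mouse 10 fed chow (-0.54).

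**Figure D4:**
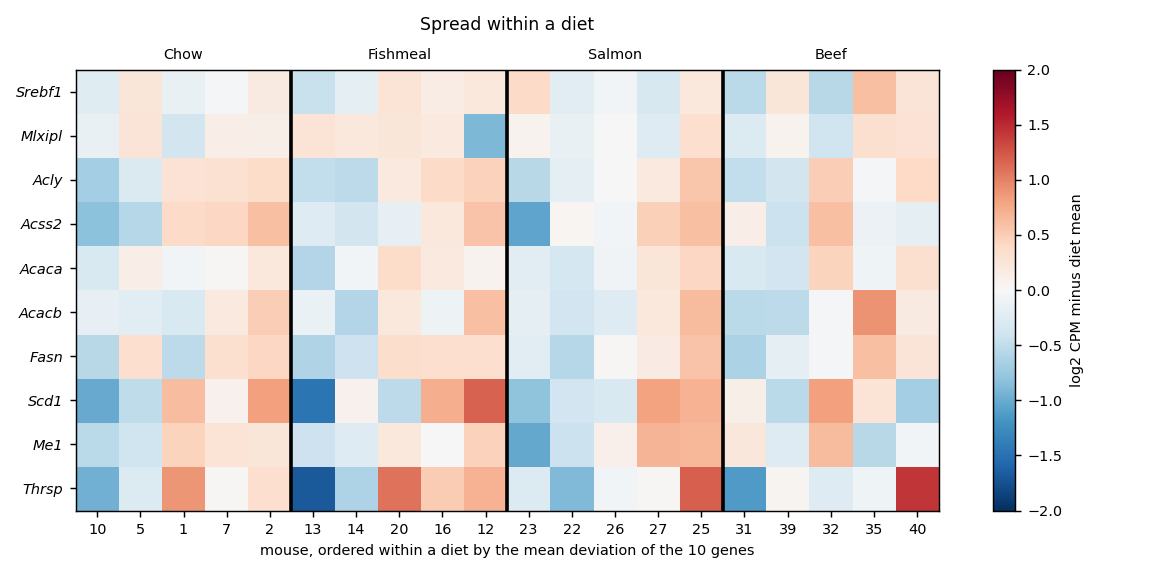
Deviation of each gene (vertical axis) from its diet mean on the log2 CPM scale (colour) in each mouse (horizontal axis), ordered within a diet by the mean over the 10 genes. Mice 10, 13, 23 and 31 are the lowest of their diets, and mice 2, 12, 25 and 40 the highest. Scd1 and Thrsp show the strongest colours, and Mlxipl of mouse 12 goes against the rest of its column.

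Within diets, several enzymes varied with Fasn from mouse to mouse. Over 20 mice, deviations from the diet mean were correlated with those of Fasn for Acacb (r = 0.80, rho = 0.80), Acaca (r = 0.73, rho = 0.65), Acly (r = 0.68, rho = 0.61), Srebf1 (r = 0.68, rho = 0.66) and Thrsp (r = 0.67, rho = 0.65). The permutation p values of r, with 100000 permutations of mice within diets, were 0.00018, 0.00087, 0.00443, 0.00239 and 0.00418, and 0.00162 to 0.00797 after adjustment over 9 genes. Those of rho were 0.00022, 0.00501, 0.011, 0.00378 and 0.00658, and 0.00198 to 0.0198 after adjustment. Without mice 13 and 31, the farthest from the median of Fasn, r was 0.80, 0.65, 0.60, 0.57 and 0.55. For Scd1, Acss2, Me1 and Mlxipl r was 0.45, 0.37, 0.32 and 0.28, with adjusted permutation p values from 0.112 to 0.295 for r and from 0.0989 to 0.253 for rho. Among the 45 pairs of members, r was positive in 39 and ran from -0.45 for Scd1 with Mlxipl to 0.88 for Me1 with Acss2, with a median of 0.48. Acss2, Scd1 and Me1 were also high in the same mice, at 0.82 for Scd1 with Acss2 and 0.73 for Me1 with Scd1. Both genes of a pair were read from the same libraries, and these values are descriptions with no p.

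Neither the clock score nor a fasting score (mean log2 level of 8 genes that include Pck1 and Pdk4) passed the adjustment over 10 genes within diets. With the clock score, r was 0.63 for Srebf1, 0.56 for Thrsp and 0.53 for Mlxipl, with rho of 0.66, 0.46 and 0.57. Their permutation p values were 0.019, 0.0273 and 0.0281 for r, each 0.0936 after adjustment, and 0.011, 0.0731 and 0.0238 for rho, or 0.11, 0.183 and 0.119 after adjustment. Without mice 25 and 31, r was 0.54, 0.40 and 0.46. With the fasting score, r ran from -0.43 for Scd1 to 0.21 for Mlxipl, and the lowest adjusted permutation p was 0.322 for r and 0.148 for rho. Without mice 1 and 5, r moved from 0.21 to -0.076 for Mlxipl, from 0.049 to -0.36 for Fasn and from -0.083 to -0.38 for Srebf1, so these values rested on those mice. A fasting time for each mouse is not given in the labels.

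**Figure D5:**
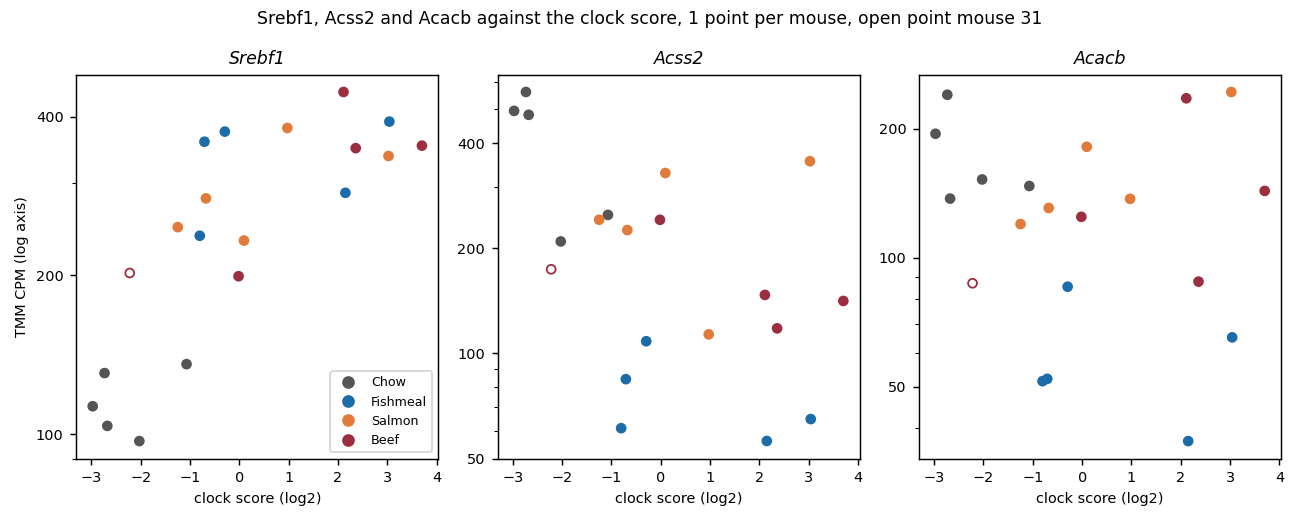
Level of Srebf1, Acss2 and Acacb in each liver (vertical axes, TMM CPM on a log axis) against the clock score of the same liver (horizontal axis, log2 units), coloured by diet, with mouse 31 open. The 5 chow-fed mice lie at scores between -2.97 and -1.07, and the HFD-fed mice reach 3.70. For Acss2 and Acacb the mice fed fishmeal lie below all others.

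Other genes around the pathway were counted from lists. Of 13 regulators of SREBP-1c and ChREBP, among them Scap, Insig1, Insig2 and Nr1h3, which encodes LXR alpha, none was called by edgeR in any of the 7 comparisons. In HFD versus chow 3 of them had an unadjusted p under 0.05, where 24.4% of all genes had one. DESeq2 called 2 higher in HFD versus chow, 1 higher with fishmeal and 1 higher with beef against chow, and 2 lower with fishmeal than with salmon filet. Limma called 1 lower with fishmeal than with salmon filet and none in the other comparisons. Of 17 genes that supply sugar carbon, citrate or NADPH, 3 rose and 1 fell. Among them Pcx, pyruvate carboxylase, rose by 0.66 (edgeR adjusted p = 0.0291). Slc2a2, the glucose transporter GLUT2, rose by 0.40 (edgeR adjusted p = 0.034), and G6pdx, which makes NADPH in the pentose phosphate pathway, fell by 1.00 (edgeR adjusted p = 0.0139). Against chow, edgeR called 1 gene of the list with beef, Slc2a2 at 0.50 (edgeR adjusted p = 0.0354), and 1 higher with salmon filet. With fishmeal edgeR called none, and 7 had an unadjusted p under 0.05, where 16.9% of all genes had one. There DESeq2 called 2 higher and 1 lower, and limma 1 lower.

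Of 13 genes of elongation, desaturation and esterification, Dgat2, the last step of triglyceride synthesis, rose by 0.56 (edgeR adjusted p = 0.0259) and Scd2 fell by 0.91 (edgeR adjusted p = 0.00835) in HFD versus chow. With fishmeal against chow edgeR called 1 gene, the acyl-CoA synthetase gene Acsl3, at -0.73 (edgeR adjusted p = 0.0276), while DESeq2 called 1 higher and 4 lower and limma 2 lower. Between fishmeal and salmon filet edgeR called none of the 13, DESeq2 called 1 lower, and 6 had an unadjusted p under 0.05, where 5.16% of all genes had one. Of 9 genes that control acetyl-CoA carboxylase, Trib3 rose by 1.04 in HFD versus chow (edgeR adjusted p = 0.0484), from 1.76 ± 0.916 to 3.62 ± 1.56 CPM. Of 6 other LXR targets, the sterol transporter genes Abcg5 and Abcg8 rose by 0.85 (edgeR adjusted p = 0.00149) and 1.02 (edgeR adjusted p = 0.00187), and both were also called against chow in each diet. Of 7 other ChREBP targets, Slc2a2 alone was called. Of 8 fasting genes, Pdk4 fell by 1.29 (edgeR adjusted p = 0.0119).

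The 19 SREBP-2 targets, genes of cholesterol synthesis and uptake, had the most calls of these lists in HFD versus chow. There 11 fell and none rose, with a median log2 fold change of -1.0 over the list and 0.00 over all genes. Against chow 17 fell with fishmeal, 5 with beef and 1 with salmon filet. Of the 28 genes lower with fishmeal than with salmon filet, 15 belonged to this list, and Acss2 and Acacb stood among the others. With fishmeal against beef, Fdps and Lss were among the genes of the list that fell, at log2 fold changes of -2.14 and -1.11 (edgeR adjusted p = 0.0375 and 0.0337). Of 12 clock genes, 7 rose and 1 fell in HFD versus chow, Dbp by 4.70 on the log2 scale (edgeR adjusted p = 0.00423), and neither edgeR, DESeq2 nor limma called one between the HFD groups, where none had an unadjusted p under 0.05.

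The pattern of the 10 genes within diets, taken as their mean deviation in each mouse, was most like that of Pklr (r = 0.86), Elovl6 (0.85), Paox (0.82), Pnpla3 (0.79) and C330021F23Rik (0.78) among 11526 other protein coding genes over 20 mice. Crot (-0.89), Rin2 (-0.83) and Inca1 (-0.81) had the lowest values. These are descriptions of the most extreme of many genes and carry no test.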

How the data were processed

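Libraries were strand-specific, poly(A)-selected and paired-end, made from liver of 20 mice. The authors trimmed reads with BBDuk, aligned them with HISAT2 1.2.1 and counted them per gene with featureCounts 1.4.6-p1, versions per the submitters' processing notes. The deposited raw counts cover 55487 Ensembl genes, and the deposited TPM values are scaled per gene length and library. Strand and multimapping settings of the counting are not given in the sources used here. Groups followed the column names, and mouse 31 was also grouped by its sample label (5 chow, 5 fishmeal, 6 salmon filet, 4 beef).

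Raw counts were tested with edgeR 4.0 quasi-likelihood fits on the groups compared (TMM, filterByExpr minimum count 10, two-sided, Benjamini-Hochberg over all genes, called at adjusted p under 0.05), in R 4.3. DESeq2 1.42, limma 3.58 on log2(TPM + 1) for genes of mean TPM at least 0.5, other scalings, no filter, a fit on all 4 groups, a clock score covariate and leaving out each mouse were alternatives. TPM is per length and was used to order genes. Within-diet correlations used log2 CPM (prior count 2) minus the diet mean. Positions are from GENCODE M21 (GRCm38), promoters from RefSeq (GRCm38.p6), and similar transcripts from blastn 2.17 (at least 200 bases, 90% identity). Scripts were tested on simulated data. Members, lists and tests were chosen with earlier results of these data known. All 10 members were named, from each list at most 4 called genes with the largest change in HFD versus chow, and by likeness 5 genes with the highest and 3 with the lowest correlation. Genes called in another comparison (Acsl3, and Fdps and Lss with fishmeal against beef) were named after their values were seen, and some genes of the lists are counted but not reported by name here. P-values of group tests judge a difference against the spread between mice, and permutation p-values judge an association within diets. Libraries held 42526234 to 70266136 counts.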

Additional observations from a re-analysis of the deposited data

Results flagged for a closer look

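Of 48 groups of 5 mice examined for a mouse far from the rest (gap to the next mouse over the whole range above 0.71), 5 had one, and chance gives about 1 in 20. Mlxipl was 214.3 CPM in mouse 12, fed fishmeal, with 455.2 CPM in the next lowest. Thrsp was 240.2 CPM in mouse 25, fed salmon filet, with 106.5 CPM in the next highest, and 266.5 CPM in mouse 40, fed beef, with 102.6 CPM in the next highest. The fasting score was 0.5786 in mouse 27, fed salmon filet, against -0.04123 in the next mouse, and 0.5265 in mouse 31, counted as beef, against 0.1311.

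The effect of a diet against chow differed between fishmeal and salmon filet for Acss2 and Acacb, as tested directly between these HFD groups. The log2 difference was -1.753 for Acss2 and -1.478 for Acacb, lower in 5 of 5 mice fed fishmeal for both, with an edgeR adjusted p of 0.0268 each. With mouse 31 counted as salmon filet, Acacb lost this call. Neither gene was called without mouse 13, 14, 16, 20, 25 or 27, and Acss2 was not called without mouse 22 or 26.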

How the results depend on the processing

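No paired analysis was possible because mouse numbers are not shared between groups. Of 1715 recomputed values, 1539 (89.7%) were counted as unchanged. For log2 fold changes, unchanged meant the same direction and the same side of the threshold. Other values, such as counts of called genes, percentages and correlations, were counted as unchanged when they moved by less than a set margin. A change from 2 to 3 members called fell within that margin. In HFD versus chow the number of members called was 1 with the clock score, 3 in the fit on all 4 groups and 1 to 2 with a mouse left out. With fishmeal against chow it was 1 with the clock score and 3 with any mouse left out. With salmon filet against chow it was 2 by DESeq2 and 0 with the clock score, and 1 with any mouse left out. With beef against chow it was 1 by limma, 0 with the clock score, 1 by sample label and 1 to 2 with a mouse left out. Fishmeal against salmon filet gave 1 by sample label and 0 to 2 with a mouse left out, and fishmeal against beef gave 2 by DESeq2. The cause was not tested. Leaving out a mouse lowers the number of samples, and no filter raises the number of genes tested.

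No value that changed sign was called. With the clock score, log2 fold changes against chow became, for all HFD-fed mice, -0.15 for Acaca, -0.014 for Fasn and -0.56 for Thrsp, with fishmeal -0.16 for Thrsp, with salmon filet -0.18 for Acaca and -0.24 for Thrsp, and with beef 0.24 for Scd1, 0.15 for Me1 and -0.64 for Thrsp. By limma, Thrsp was at -0.094 with fishmeal and Acly at -0.0089 with beef. By sample label, Srebf1 was at -0.027 in fishmeal against beef, and in salmon filet against beef Thrsp was at -0.36 and Fasn at -0.081. There Thrsp was at -0.00012 with DESeq2 size factors, -0.00065 without a filter and -0.0028 in the fit on all groups, and Srebf1 at 0.042 by limma and 0.089 with the clock score. With a mouse left out, Thrsp with fishmeal against chow ran from -0.17 to 0.41. With salmon filet against chow, Mlxipl ran from -0.12 to 0.032, Acly from -0.20 to 0.070, Acacb from -0.30 to 0.038, Scd1 from -0.27 to 0.20 and Me1 from -0.32 to 0.044. Acly with beef against chow ran from -0.074 to 0.18. In fishmeal against beef, Srebf1 ran from -0.027 to 0.27, Mlxipl from -0.19 to 0.065 and Thrsp from -0.83 to 0.00015. In salmon filet against beef, Srebf1 ran from -0.19 to 0.089, Acly from -0.29 to 0.019, Acaca from -0.24 to 0.014, Fasn from -0.017 to 0.33 and Thrsp from -0.43 to 0.54.

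The percentage of all genes called moved by over 1.5 times from the values in the text in many settings. DESeq2 called 6.32%, 9.92% and 6.45% with fishmeal, salmon filet and beef against chow, 0.563% and 0.154% for fishmeal against salmon filet and beef. The clock score gave 1.83% for all HFD-fed mice and 0.243%, 0.121% and 0.11% for these diets against chow. Leaving out mouse 35 kept the sign of r in every within-diet correlation. The largest move was for Me1 with Fasn, from 0.32 to 0.48. No p was computed for this check, which was added after seeing the data.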
